A study of Mus musculus with 12 samples.

Results

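Interferon-induced GTPases of the guanylate-binding protein (GBP) and immunity-related GTPase (IRG) families were followed in sorted mouse hematopoietic stem cells (HSCs), the cells that sustain all blood lineages. The members were taken by symbol from a table of gene counts: Gbp2, Gbp3, Gbp4, Gbp5, Gbp6, Gbp7, Gbp8, Gbp9, Irgm1 and Igtp. They are 10 of the 27179 genes listed, and all 10 were among the 14473 genes with enough counts to be tested. Total RNA from 12 C57BL/6J mice was sequenced, 1 library a mouse, and each of the 4 genotypes had 3 mice. Group WT (WT2, WT3, WT4) was wild-type. Group E (E1, E2, E3) carried Emu-myc, a Myc transgene driven by the immunoglobulin heavy chain enhancer, an element active in B-lineage cells. Group C (C1, C2, C3) was Casp1 -/- Casp11 -/-, without the transgene. Group CE (CE1, CE2, CE3) was Emu-myc Casp1 -/- Casp11 -/-. The sources used here do not give the age, sex, sort gate or batch of the mice.

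GBPs and IRGs are large and medium-sized GTPases whose transcription is switched on by interferons, chiefly interferon-gamma, with IRF1 among the factors that carry the signal. Their proteins assemble on the membranes of intracellular pathogens and on bacterial lipopolysaccharide, and help to bring lipopolysaccharide to Casp11, the sensor protease of the noncanonical inflammasome, which the annotation lists as Casp4. In HSCs, interferon signalling drives cells out of quiescence, and Irgm1 is known for keeping HSCs from being exhausted by it.

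The members lie on 3 chromosomes of the mm10 genome. Gbp5, Gbp7, Gbp3 and Gbp2 lie in a cluster on chromosome 3, from the start of Gbp5 at 142496934 to the end of Gbp2 at 142638008. Gbp2b (142594816 to 142619179) lies between Gbp3 and Gbp2. Gbp8, Gbp9, Gbp4 and Gbp6 lie in a second cluster on chromosome 5, with Gbp10 and the transcribed pseudogene Gbp11. That cluster runs from 105012513 to 105346476, over 333964 bases. Irgm1 (48865245 to 48871420) and Igtp (58199556 to 58207592) are on chromosome 11. Splitting the members by chromosome was chosen after their values were seen.

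The RefSeq promoter table (build GRCm38.p6, 250 bases before to 50 after each start) holds 6 of the 10 members, with 7 promoters, 2 of them for Gbp3. Gbp4, Gbp6, Gbp8 and Gbp9 are not among them. The core of the interferon-stimulated response element, to which interferon regulatory factors bind, was searched on both strands as GAAA, any 2 bases and GAAA again. It occurs in 6 of the 7 promoters, against 3.44% of all 32851 promoters in the table, and the promoter without it is the downstream one of Gbp3. Counted by gene, all 6 members have a promoter with a match, against 3.99% of the genes in the table. The gamma-activated sequence, also searched, as TTC, any 3 bases and GAA (the same on both strands), occurs in 3 of the 7 promoters, those of Gbp5, Gbp7 and Igtp, against 8.3% of all promoters, and overlaps no response element match there. It was not found in the windows of Gbp2, Gbp3 and Irgm1. The response element matches are shown because interferon regulatory factors are known to induce these genes through such letters. Each window is written 5′ to 3′ on the gene's strand, with the match in capitals (it reads TTTC, 2 bases, TTTC where the match is on the other strand), and overlapping matches are joined. Gbp2 is at chr3:142620589-142620628, Gbp3 at chr3:142559984-142560029, Gbp5 at chr3:142496754-142496793 and Gbp7 at chr3:142530268-142530307, all on the plus strand. Irgm1 is at chr11:48871420-48871465 on the minus strand and Igtp at chr11:58199507-58199546 on the plus strand.
Gbp2: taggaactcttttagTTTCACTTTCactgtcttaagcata
Gbp3: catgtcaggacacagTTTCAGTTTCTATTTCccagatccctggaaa
Gbp5: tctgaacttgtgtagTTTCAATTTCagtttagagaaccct
Gbp7: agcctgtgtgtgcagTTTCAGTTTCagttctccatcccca
Irgm1: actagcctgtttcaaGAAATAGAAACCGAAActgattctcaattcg
Igtp: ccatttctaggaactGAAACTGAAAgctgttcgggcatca
Gbp3 and Irgm1 each hold 2 overlapping matches, and the other members hold 1. These matches describe the letters only, since no binding was measured.

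Libraries held 24529611 to 34065910 counts. C1 and C3 detected more genes than the others (22900 and 21247, against 17310 to 18863). The 15 HSC markers listed (Kit, Procr, Mecom, Hlf and others) were all tested and summed to 1106 to 1506 CPM (counts scaled by the effective library size), while the 13 neutrophil-lineage markers summed to 8497 to 13500 CPM. By group the HSC markers summed to 1106 to 1225 CPM in WT, 1213 to 1362 in E, 1268 to 1350 in C and 1458 to 1506 in CE. Casp1, the protease that matures interleukin-1 beta, checked the caspase label: it was at 29.8 to 47.8 CPM in WT and E and at 5.10 to 6.76 CPM in C and CE. Casp4 (Casp11) was at 12.04 to 17.2 CPM in WT and E and at 7.07 to 13.7 CPM in C and CE, so its transcript remained in the libraries labelled as its knockout. Myc was at 394 to 449 CPM in WT and E and at 319 to 410 CPM in C and CE, and the E and WT libraries did not separate by it. Transcripts of 4 Y-linked genes summed to 91.4 to 122 CPM in the C libraries, CE1 and CE2, and to at most 0.263 CPM in CE3 and every WT and E library. The caspase genotype and the sex of the mice therefore cannot be told apart in C against WT, and only CE3 separates them in CE against E. Changes were tested with edgeR's quasi-likelihood F test in a fit of all 12 libraries, and passing means a p under 0.05 after Benjamini-Hochberg adjustment over all genes tested. The p-values measure the spread between mice as single libraries show it.

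Every member was detected in every library, from 15 counts of Gbp4 in E3 upwards. Levels are compared between genes as CPM per kilobase of the longest annotated transcript. In WT, Igtp (16.2 ± 2.07, SD, n = 3), Irgm1 (16.1 ± 3.11) and Gbp3 (14.1 ± 3.46) were the most abundant, and their ranges overlapped from one to the next. Gbp2 followed at 8.79 ± 0.76 CPM per kilobase, below every WT value of Gbp3. Gbp7 stood at 5.63 ± 1.69 and Gbp5 at 3.10 ± 0.72, below Gbp2, with ranges that overlapped each other. The chromosome 5 members came last: Gbp6 at 1.19 ± 0.26, Gbp8 at 0.756 ± 0.281, Gbp4 at 0.551 ± 0.243 and Gbp9 at 0.384 ± 0.120. All WT values of Gbp6 were below all those of Gbp5, while neighbours within the chromosome 5 group overlapped. The HSCs thus held the chromosome 11 and chromosome 3 transcripts at levels per length well above those of the chromosome 5 cluster.

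Some members share sequence with relatives, which can move reads between genes, and the sources used here do not give how such reads were counted. Of the 50-base windows in the longest transcript, 48.7% in Gbp6 occur in another family member, mostly Gbp10 (43.8%). The share was 18.2% in Gbp8, 12.8% in Gbp4, 12.3% in Igtp (with Irgm2) and 8.31% in Gbp9. It was below 5% in the chromosome 3 members and 0 in Gbp5 and Irgm1. The values of Gbp6 and Gbp8 are therefore less certain than those of Gbp5 or Irgm1.

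**Figure D1:**
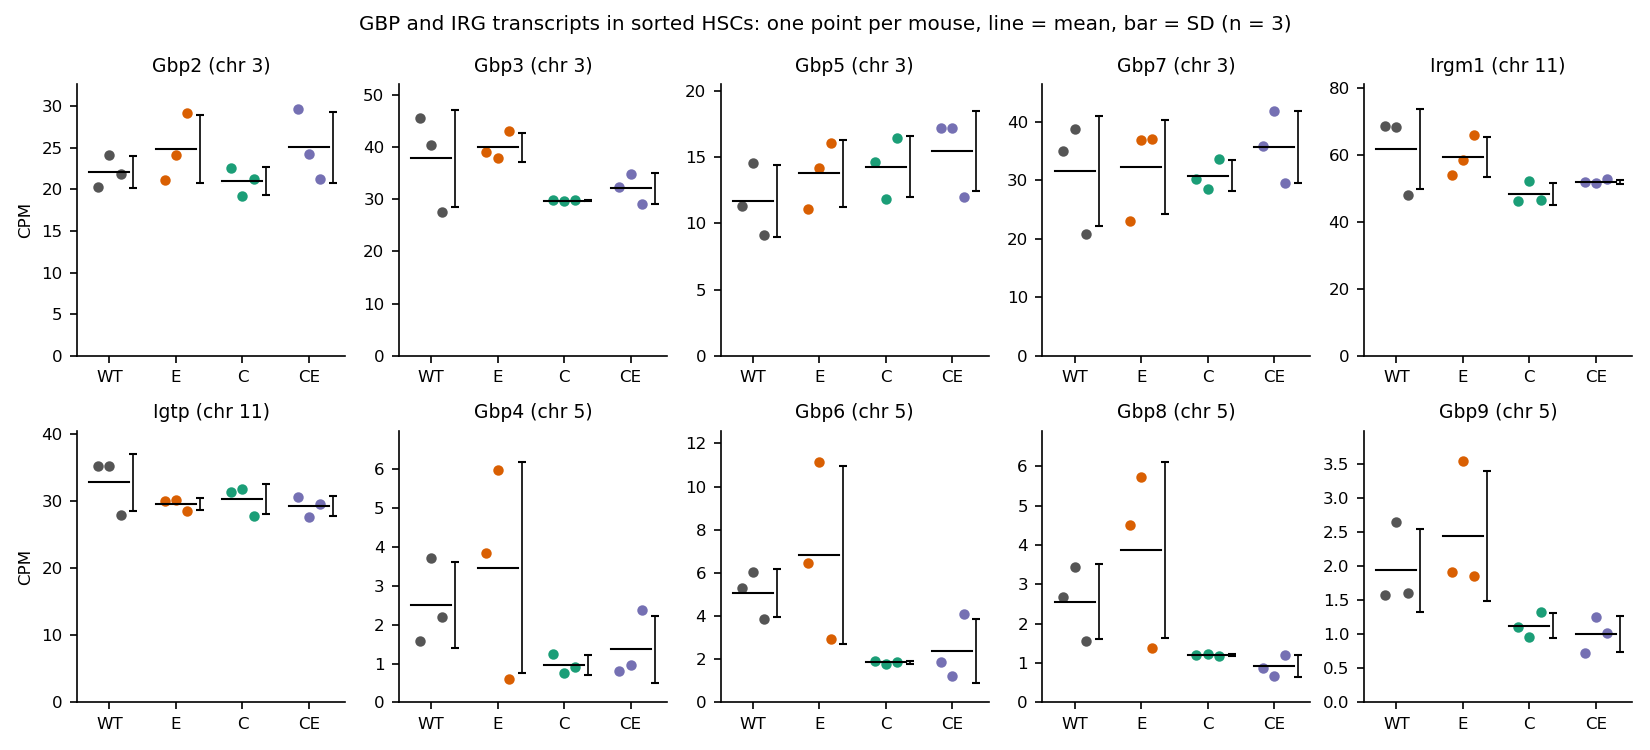
Level of each of the 10 members in CPM (y axis, from 0) for the groups WT, E, C and CE. Points are mice, the horizontal line is the mean and the bar beside it the SD (n = 3 each); the 4 chromosome 5 members, Gbp4, Gbp6, Gbp8 and Gbp9, have low values in all C libraries, and the chromosome 3 members Gbp2, Gbp5 and Gbp7 overlap in all groups.

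The chromosome 3 GBPs came first. Genetic loss of this cluster in mice is known to impair Casp11 responses to bacteria in the cytosol. Gbp2, which coats pathogen membranes, was at 20.4, 24.1 and 21.8 CPM in WT2, WT3 and WT4 and at 21.1, 24.2 and 29.2 CPM in E1, E2 and E3. It was at 22.5, 19.3 and 21.3 CPM in C1, C2 and C3 and at 29.7, 24.3 and 21.3 CPM in CE1, CE2 and CE3. All 4 groups overlapped, and the estimate of C against WT was -0.07 on the log2 scale (95% interval -0.38 to 0.23, adjusted p = 0.8). For CE against E it was 0.01 (-0.29 to 0.32, adjusted p = 0.966). Gbp2 thus gave no call in any comparison.

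Gbp5, which promotes NLRP3 inflammasome assembly, was at 11.3, 14.5 and 9.14 CPM in the WT libraries and at 11.1, 14.2 and 16.1 CPM in the E libraries. It was at 14.6, 11.8 and 16.4 CPM in the C libraries and at 17.2, 17.2 and 11.96 CPM in the CE libraries. Gbp5 was the only member with a positive estimate in C against WT, 0.29 (SE 0.20, adjusted p = 0.403), and its groups overlapped. Gbp7, which is known for its part in oxidative killing of bacteria, was at 35.04, 38.8 and 20.9 CPM in WT and at 23.1, 36.9 and 37.1 CPM in E. It was at 30.3, 28.6 and 33.7 CPM in C and at 35.9, 41.8 and 29.5 CPM in CE. The lowest values of Gbp7 were those of WT4 and E1, and no pair of groups separated. Its estimates were -0.04 in C against WT (SE 0.21, adjusted p = 0.935) and 0.14 in CE against E (SE 0.21, adjusted p = 0.73).

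Gbp3, the most abundant GBP per length, differed in pattern from its neighbours on chromosome 3. It was at 45.6, 40.4 and 27.6 CPM in WT and at 39.0, 37.8 and 43.1 CPM in E. It was at 29.8, 29.7 and 29.8 CPM in C and at 32.3, 34.9 and 29.1 CPM in CE. Every CE value was below every E value, while WT4, at 27.6 CPM, was below all C values. The estimates were -0.35 in C against WT (SE 0.15, adjusted p = 0.166) and -0.32 in CE against E (SE 0.15, adjusted p = 0.213). Neither passed. Without WT4 the estimate of C against WT was -0.52 with adjusted p = 0.00842. In that fit 2258 genes passed in all, against 95 with WT4, so the gain of a call was not particular to Gbp3.

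The IRG members are both of the regulatory class, which holds the effector IRGs inactive on the cell's own membranes. Irgm1 was at 68.8, 68.6 and 48.0 CPM in WT and at 54.2, 58.6 and 65.9 CPM in E. It was at 46.3, 52.2 and 46.6 CPM in C and at 52.0, 51.6 and 52.8 CPM in CE. The E and CE libraries did not overlap, and the lowest WT library, WT4, lay inside the C range. The estimates were -0.35 in C against WT (SE 0.13, adjusted p = 0.117) and -0.19 in CE against E (SE 0.13, adjusted p = 0.383). Without WT4 Irgm1 passed in C against WT, with -0.49 and adjusted p = 0.00802, as 2258 genes in all did. Igtp, also called Irgm3, was at 35.1, 35.2 and 27.9 CPM in WT and at 29.9, 30.1 and 28.5 CPM in E. It was at 31.4, 31.8 and 27.7 CPM in C and at 30.5, 27.6 and 29.6 CPM in CE. Its groups overlapped throughout, with -0.11 in C against WT (95% interval -0.34 to 0.12, adjusted p = 0.562) and -0.01 in CE against E (-0.24 to 0.22, adjusted p = 0.958).

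The chromosome 5 GBPs showed the larger differences. Gbp8 was at 2.67, 3.45 and 1.56 CPM in WT and at 4.50, 5.73 and 1.38 CPM in E. It was at 1.21, 1.22 and 1.19 CPM in C and at 0.865, 0.680 and 1.22 CPM in CE. All 6 libraries with the caspase knockout label were below all 6 without it, although E3 and WT4 came close to them. Gbp8 fell 4.21-fold in CE against E (log2 -2.07, SE 0.43, 95% interval -2.99 to -1.15, adjusted p = 0.0398). In C against WT its estimate was -1.09 (SE 0.42, adjusted p = 0.142). The call in CE against E was lost without CE1, CE2, CE3, E1 or E2, with estimates from -1.66 to -2.32 and adjusted p from 0.0887 to 0.19, and it held without E3 (-2.47, adjusted p = 0.00944). Leaving out any of the 6 libraries compared also cut the genes passing in all, from 229 to between 2 and 32. The loss of calls was thus not particular to Gbp8.

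Gbp9 was at 1.57, 2.64 and 1.60 CPM in WT and at 1.92, 3.54 and 1.86 CPM in E. It was at 1.11, 0.954 and 1.32 CPM in C and at 0.726, 1.26 and 1.02 CPM in CE. As for Gbp8, all libraries with the caspase knockout label were below all those without it. The estimates were -0.79 in C against WT (SE 0.33, adjusted p = 0.165) and -1.29 in CE against E (SE 0.33, adjusted p = 0.0582). Neither passed.

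Gbp6 was at 5.30, 6.05 and 3.86 CPM in WT and at 6.46, 11.1 and 2.93 CPM in E. It was at 1.94, 1.76 and 1.86 CPM in C and at 1.87, 1.22 and 4.07 CPM in CE. The C libraries were below all WT libraries, but CE3 was above WT4 and E3. The estimates were -1.46 in C against WT (SE 0.44, adjusted p = 0.0781) and -1.52 in CE against E (SE 0.43, adjusted p = 0.0715). Without WT4, where 2258 genes passed in all, the estimate in C against WT was -1.60 with adjusted p = 0.0358.

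Gbp4 was the most variable member. It was at 1.57, 3.72 and 2.21 CPM in WT and at 3.84, 5.98 and 0.593 CPM in E. It was at 1.24, 0.745 and 0.900 CPM in C and at 0.795, 0.951 and 2.37 CPM in CE. E3 had the lowest value of all 12 libraries, and CE3 was above WT2 and WT4. The C and WT groups did not overlap, while the CE and E groups did. The estimates were -1.39 in C against WT (SE 0.62, adjusted p = 0.192) and -1.34 in CE against E (SE 0.59, adjusted p = 0.193).

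**Figure D2:**
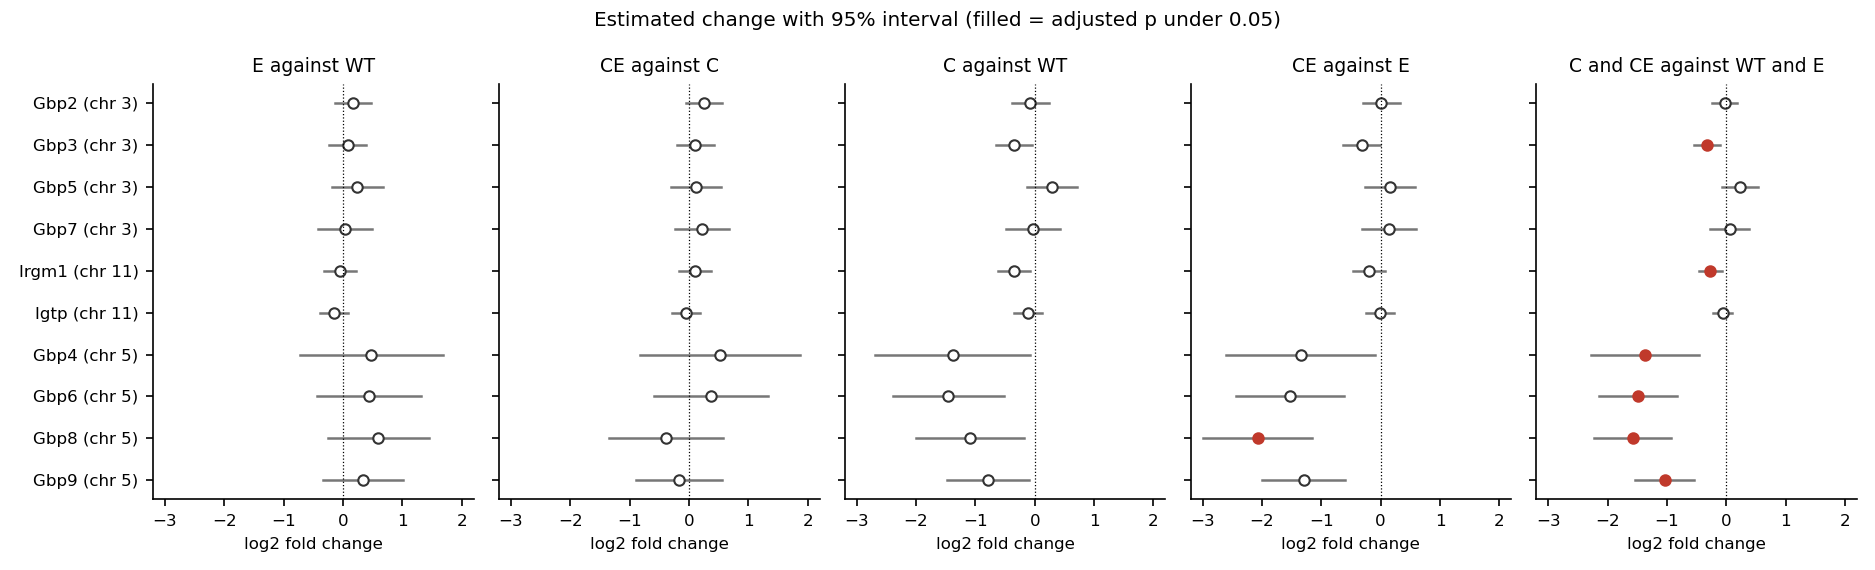
Estimated log2 fold change of each member (points) with its 95% interval (lines) in 5 comparisons, from edgeR. Filled points passed at an adjusted p under 0.05: none in the first 3 panels, Gbp8 in CE against E, and 6 members in C and CE against WT and E.

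Read across the members, the effect of the transgene gave no call. None of the 10 passed in E against WT, where 0.0829% of all genes tested passed, and none passed in CE against C, where 0.207% did. Their median estimates were 0.20 and 0.11, against -0.002 and 0.008 over all genes tested. No member had an unadjusted p under 0.05 in either comparison, as 6.58% and 5.14% of all genes tested did, and DESeq2 and limma voom called none. The estimates in E against WT ran from -0.15 (Igtp) to 0.59 (Gbp8, 95% interval -0.26 to 1.44). In CE against C they ran from -0.39 (Gbp8, SE 0.45) to 0.52 (Gbp4, SE 0.63), each with adjusted p = 0.9995. The estimates of E against WT for Gbp3, Gbp4, Gbp6, Gbp7, Gbp9 and Irgm1 changed sign when single libraries were left out.

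The effect of the caspase genotype was estimated once without and once with the transgene, in comparisons that share no library. In C against WT none of the 10 members passed with edgeR, where 0.656% of all genes tested passed. DESeq2 also called none of them, with 1195 genes passing in all. With limma voom 4 members passed (Gbp3, Gbp6, Gbp9 and Irgm1), where 1773 genes passed in all. The estimate was below 0 for 9 of 10, with a median of -0.35 against -0.01 over all genes tested. Gbp3, Gbp4, Gbp6, Gbp8, Gbp9 and Irgm1 had an unadjusted p under 0.05 on the lower side, as 12.7% of all genes tested did. Groups did not overlap, with C lower, for Gbp4, Gbp6, Gbp8 and Gbp9, as for 13.9% of all genes tested. In CE against E 1 member, Gbp8, passed as lower, where 1.11% of all genes tested did. DESeq2 and limma voom called 3 each (Gbp6, Gbp8 and Gbp9), where 1182 and 1392 genes passed in all, in either direction. The median over the members was -0.25 against 0.00 over all genes tested. Groups did not overlap, with CE lower, for Gbp3, Gbp8, Gbp9 and Irgm1, as for 15.1% of all genes tested. The 4 chromosome 5 members had median estimates of -1.24 and -1.43 in these comparisons, the 4 on chromosome 3 had -0.06 and 0.08, and the 2 on chromosome 11 had -0.23 and -0.10.

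Whether the transgene effect differed between the backgrounds was tested as an interaction, CE against C minus E against WT. No member passed, as none of all genes tested did (0.0%). Of all genes tested 2.11% (305) had an unadjusted p under 0.05, with no member among them. DESeq2 and limma voom also called no member here. The largest estimate was that of Gbp8, -0.98 (SE 0.60, 95% interval -2.27 to 0.30, adjusted p = 0.9997). The call of Gbp8 in CE against E and its absence in C against WT are therefore not shown to differ.

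A comparison of all 6 caspase knockout libraries with all 6 others, C and CE against WT and E, was added after the data were seen. It contains the same libraries as the 2 comparisons above and is no further evidence beside them. In it 6 of 10 members passed, all lower, where 11.8% of all genes tested passed as lower, 9.26% as higher and 21.0% in either direction. Gbp8 fell 2.99-fold (log2 -1.58, SE 0.30, adjusted p = 0.00455) and Gbp6 fell 2.81-fold (log2 -1.49, SE 0.31, adjusted p = 0.00636). Gbp4 fell by 1.36 on the log2 scale (SE 0.43, adjusted p = 0.0351) and Gbp9 by 1.04 (SE 0.23, adjusted p = 0.00882). The changes of Gbp3 (-0.33, SE 0.10, adjusted p = 0.0339) and Irgm1 (-0.27, SE 0.09, adjusted p = 0.0427) were smaller. Gbp2, Gbp5, Gbp7 and Igtp did not pass. Gbp8 and Gbp9 were the members whose 6 lower libraries did not overlap with the other 6, as for 4.63% of all genes tested. Leaving out each of the 12 libraries in turn kept Gbp6, Gbp8 and Gbp9 past the threshold 12 times, Gbp4 4 times, and Gbp3 and Irgm1 2 times each.

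The caspase label and the Y-linked transcripts coincide in all libraries but CE3, so the calls of that comparison go with both. With a covariate for these transcripts, which rests on CE3 alone, no member passed and 2 genes passed in all. The estimate of Gbp9 was then -1.01 (SE 0.52, adjusted p = 0.304), close to -1.04 without the covariate but with a larger SE. Those of Gbp8 (-1.06, SE 0.65, adjusted p = 0.383), Gbp6 (-0.41, SE 0.52, adjusted p = 0.688) and Gbp4 (-0.26, SE 0.79, adjusted p = 0.879) were nearer to 0 than without it. Without CE1 and CE2 no member passed either, with Gbp8 at -1.40 (adjusted p = 0.0561), Gbp9 at -1.04 (adjusted p = 0.0577) and Gbp6 at -1.12 (adjusted p = 0.0599). Without C1 and C3 none passed, with Gbp8 at -1.57 (adjusted p = 0.0987). In CE3, the caspase knockout library without Y-linked transcripts, Gbp4 and Gbp6 were within the WT range, while Gbp8 and Gbp9 were below all WT and E libraries.

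Members of the same GBP cluster tended to vary together among mice of a group, on both chromosomes, and so did some pairs across chromosomes. As deviations from the group means over the 12 libraries, the 6 pairs among Gbp4, Gbp6, Gbp8 and Gbp9 had Pearson r from 0.425 to 0.895, with a median of 0.727. The 6 pairs among the chromosome 3 members had r from 0.174 to 0.874, with a median of 0.672. The 16 pairs between a chromosome 3 and a chromosome 5 member had r from -0.506 to 0.497, with a median of -0.167. Pairs of a GBP with a chromosome 11 member ran from -0.283 (Gbp4 with Irgm1) to 0.833 (Gbp3 with Irgm1). Among these, Gbp7 with Irgm1 had 0.740 and Gbp9 with Igtp 0.011. These are descriptions over 12 libraries, and the members share libraries and, on chromosome 5, sequence. Summed, the chromosome 5 members were at 12.1 ± 3.42 CPM in WT and 16.6 ± 9.81 CPM in E, against 5.15 ± 0.42 CPM in C and 5.68 ± 2.59 CPM in CE (mean ± SD, n = 3). The chromosome 3 members were at 103 ± 20.8, 111 ± 15.7, 95.9 ± 6.03 and 108 ± 14.4 CPM in the same groups, which overlapped.

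Genes around the chromosome 5 cluster were read to see whether the differences reached them. Within 1 Mb, 13 other genes were tested. None of them passed in C against WT, where 0.656% of all genes tested did. None passed in CE against E either, where 1.11% of all genes tested passed as lower and 0.477% as higher. The median estimates of the 13 were 0.08 and -0.09 in these comparisons. In C against WT they ran from -0.60 (Rps15a-ps5, adjusted p = 0.253) to 0.39 (Lrrc8b, adjusted p = 0.21). Abcg3, the tested gene nearest to Gbp8 on its outer side, was at 0.08 (SE 0.25, adjusted p = 0.885). With 6 against 6, Hsd17b11 was the 1 flanking gene of 13 that passed (-0.23, adjusted p = 0.0416), where 21.0% of all genes tested passed in either direction. Gbp11, the pseudogene at the end of the cluster, was at 0.840, 1.66 and 1.04 CPM in WT and at 2.79, 4.81 and 0.751 CPM in E. It was at 0.276, 0.0894 and 0.0643 CPM in C and at 0, 0.102 and 1.25 CPM in CE. CE3 again lay in the WT range, and the other knockout libraries held at most 8 counts. Gbp11 entered the tests only through its higher libraries, and its estimates were -3.04 in C against WT (SE 1.02, adjusted p = 0.101) and -2.61 in CE against E (SE 0.84, adjusted p = 0.0943). Gbp10 had too few counts to be tested, with at most 0.696 CPM.

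**Figure D3:**
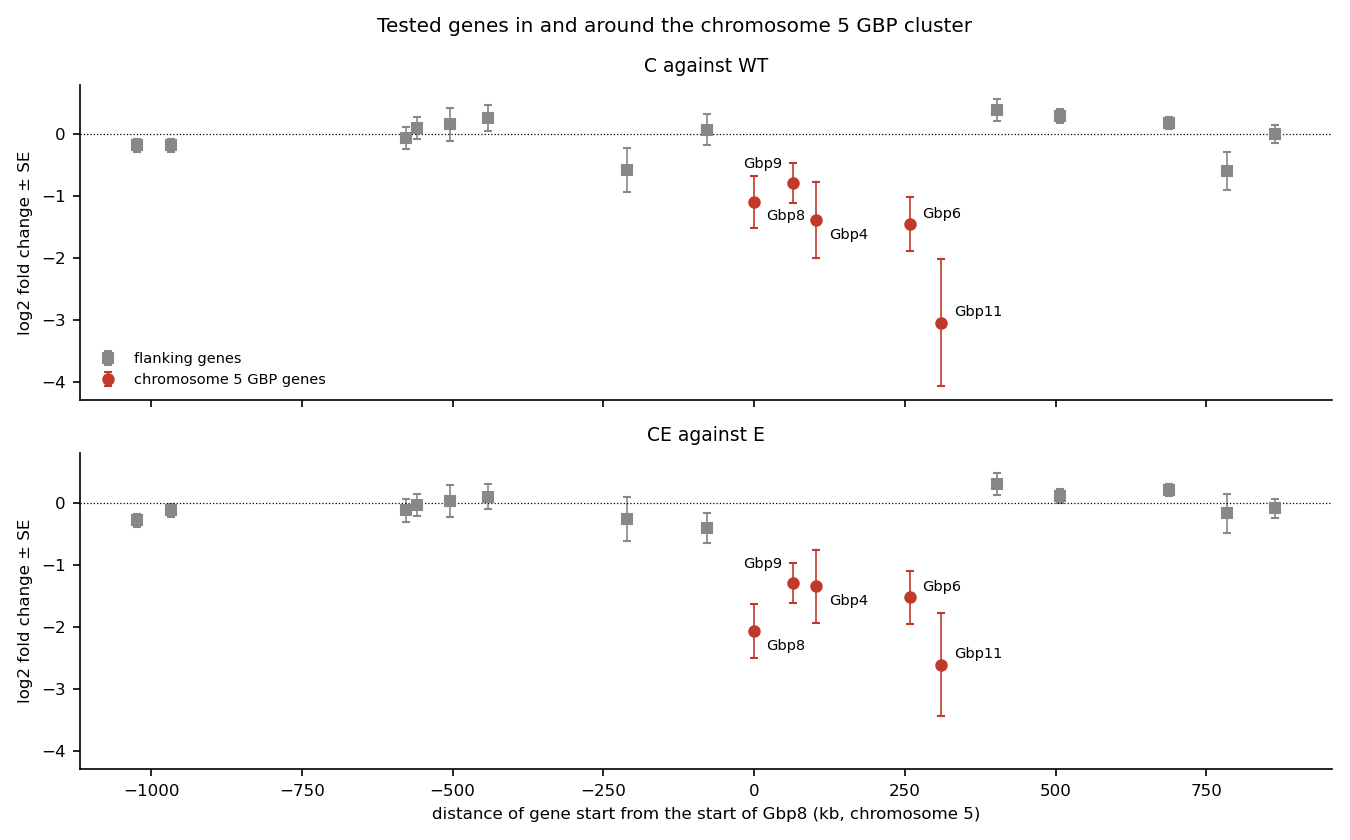
Log2 fold change with SE (y axis) of tested genes within 1 Mb of the chromosome 5 GBP cluster, by the distance of their start from the start of Gbp8 in kb (x axis), in C against WT (top) and CE against E (bottom). The 5 GBP genes (circles) lie below 0 in both panels, and of the points only Gbp8 in CE against E passed; the 13 flanking genes (squares) lie between -0.60 and 0.39.

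E1 and E2, the libraries highest in the sum of the chromosome 5 members (16.7 and 26.4 CPM), were also the highest for some transcripts of other cells, while other markers and libraries did not follow. They were at 9.80 and 8.98 CPM for Vcam1, a marrow macrophage and stromal adhesion molecule, against 2.67 to 4.60 CPM in the other 10. C1qc, a macrophage complement chain, was at 8.25 and 9.55 CPM there, against 2.18 to 6.50 CPM elsewhere. Igkc, the antibody kappa chain of plasma and B cells, was at 253 and 311 CPM there, against 5.95 to 83.3 CPM elsewhere. WT3, next to E1 with a chromosome 5 sum of 15.9 CPM, was at 3.96 CPM for Vcam1 and 3.79 CPM for C1qc, inside the range of the others, and at 83.3 CPM for Igkc. E3 was low for the chromosome 5 members (6.76 CPM in sum) and lay inside the range of the other libraries for all 3 transcripts, but it was the highest for the macrophage receptor Adgre1 (4.15 CPM), and for Spic (3.56 CPM) it was above E1 (3.21 CPM). E2 was the lowest of all 12 libraries for Csf1r, the receptor of macrophage growth factor (97.7 CPM), Cd68 (19.5 CPM) and Ly6c2 (139.6 CPM). CE3, the knockout library with the highest chromosome 5 sum (8.67 CPM), was at 2.76 CPM for Vcam1. These transcripts were picked after their values were seen. Of 14 tested macrophage and monocyte markers, 3 passed as lower in CE against E (Vcam1, Cd5l and Spic), 21.4% against 1.11% of all genes tested. In C against WT 0 passed as lower, where 0.297% of all genes tested did. The list's medians were -0.86 in CE against E and -0.24 in C against WT. The 15 markers listed summed to 340 to 502 CPM in WT, 315 to 417 in E, 361 to 416 in C and 322 to 477 in CE, with the lowest sum in E2, and none was at 0 in all libraries. The T and NK cell markers summed to 143 to 242 CPM and had no call in C against WT or CE against E. With 6 against 6, 5 of the 14 macrophage and monocyte markers fell, as did 3 of 10 tested T and NK markers. Those shares, 35.7% and 30.0%, stand against 11.8% of all genes tested, and no marker of either list passed as higher. Of the 15 HSC markers 5 rose (33.3%, against 9.26% of all genes tested) and none passed as lower. In RNA of a sorted population, fewer cells of a type and less RNA per cell cannot be told apart. The part of other cells and of the HSC marker differences in the differences of the GBPs was not tested.

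**Figure D4:**
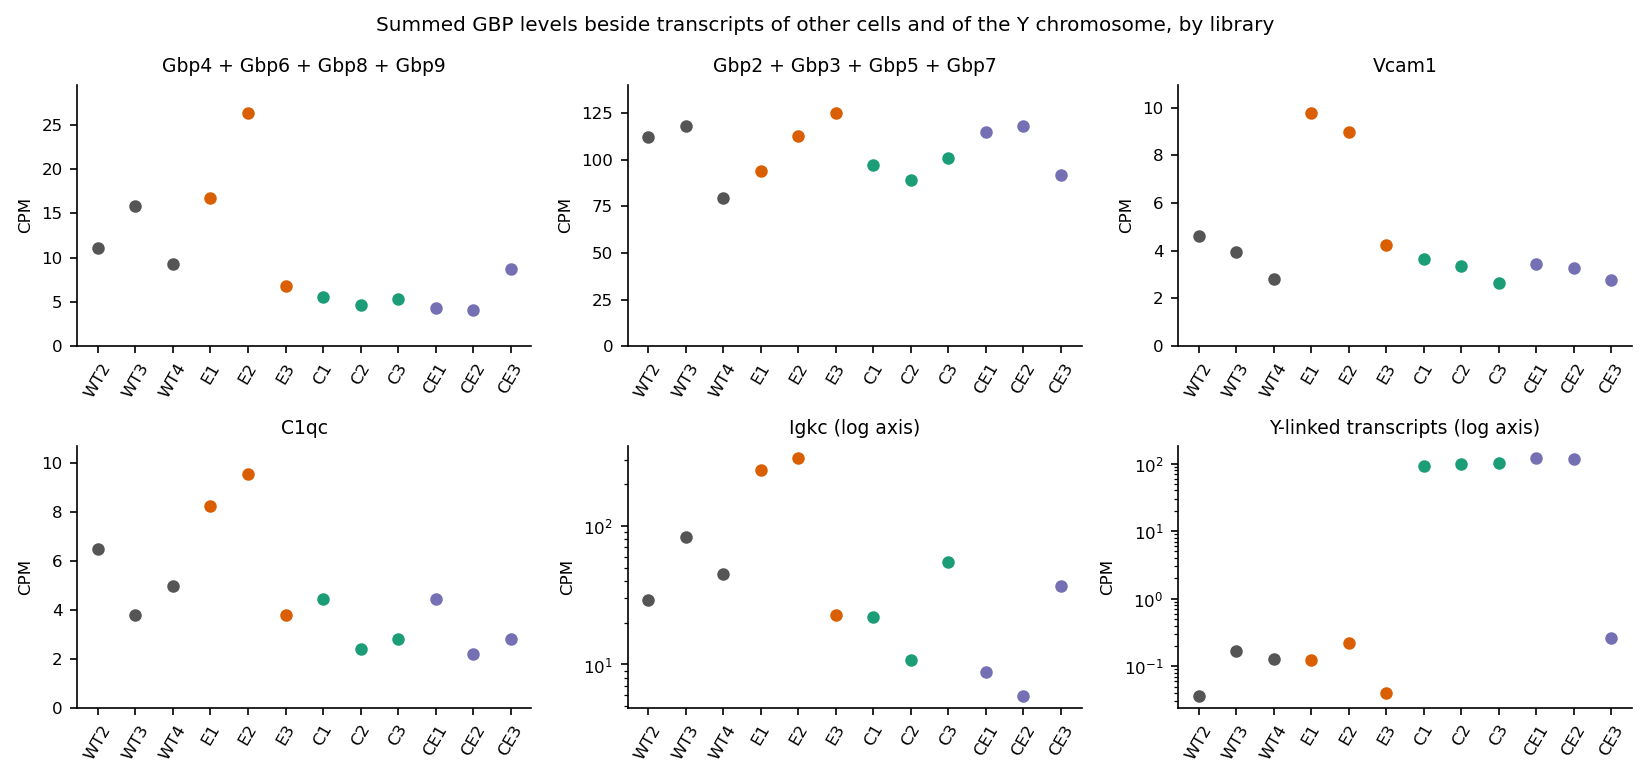
Level in CPM (y axis, log scale for Igkc and the Y-linked transcripts) in each of the 12 libraries (x axis, coloured by group) for the summed chromosome 5 members, the summed chromosome 3 members, Vcam1, C1qc, Igkc and 4 summed Y-linked transcripts. E1 and E2 are the highest libraries for the chromosome 5 sum, Vcam1, C1qc and Igkc, and CE3 is the caspase knockout library without Y-linked transcripts.

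Other genes of the families gave no call in any comparison of 3 with 3. Of 10 further GBP and IRG genes listed, 8 were tested (Gbp2b and Gbp10 had too few counts), with median estimates of -0.31 in C against WT and 0.02 in CE against E. Irgm2, the third regulatory IRG, was at 16.5 ± 3.46 CPM in WT and 18.9 ± 0.74 CPM in E, and at 15.9 ± 0.22 CPM in C and 19.5 ± 0.98 CPM in CE. Its estimates were -0.05 in C against WT (SE 0.14) and 0.04 in CE against E (SE 0.14). The effector Iigp1 was at 8.25 ± 3.33 CPM in WT and 5.72 ± 1.37 CPM in E, and at 5.93 ± 0.53 CPM in C and 6.02 ± 0.88 CPM in CE, with the highest values in WT2 and WT3. The effector pair Tgtp1 and Tgtp2, which share 89.4% and 89.8% of their 50-base windows, stood at 4.997 ± 0.825 and 19.1 ± 2.05 CPM in WT, and the split between them is uncertain. Gm12250, known as Irgb10 and for disrupting bacterial membranes, was at 16.3 ± 5.24 CPM in WT and 13.9 ± 2.07 in C, groups that overlapped. Gvin1, a very large GTPase, had estimates of -0.39 in C against WT (SE 0.42) and 0.10 in CE against E (SE 0.43). In CE against C the smallest p were those of Irgm2 (0.29, adjusted p = 0.96) and Tgtp1 (0.38, adjusted p = 0.999). Irgq, a divergent family member, had positive estimates of 0.41 in C against WT (SE 0.12, adjusted p = 0.0725) and 0.27 in CE against E (SE 0.12, adjusted p = 0.193). Among them, with 6 against 6, Irgq rose (0.34, adjusted p = 0.0131). No change is read for Gbp11, which entered the tests only through its higher libraries.

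Upstream of the members, 19 genes of interferon receptors and signalling were tested. None passed in E against WT, C against WT or CE against E, and 1 passed in CE against C. That gene was Jak2, the kinase of the interferon-gamma receptor, at 97.4, 98.7 and 77.4 CPM in CE against 59.4, 54.0 and 59.6 CPM in C. It rose by 0.66 on the log2 scale (SE 0.12, adjusted p = 0.0383), and its estimate in E against WT was 0.67 (SE 0.12, adjusted p = 0.0716). Jak2 lies on chromosome 19 near Cd274, which is read below. Irf1, a transcription factor that interferons induce, was at 0.05 in C against WT (SE 0.14, adjusted p = 0.853) and 0.15 in CE against E (SE 0.14, adjusted p = 0.553). Socs3, an inhibitor of cytokine receptors, had an estimate of 0.55 in C against WT and in CE against E (adjusted p = 0.126 and 0.124), and Ptpn2, a phosphatase of JAK1, was at -0.36 in CE against E (adjusted p = 0.11). Usp18, an interferon-induced inhibitor of the type I receptor, was at -0.50 in E against WT (adjusted p = 0.444) and -0.49 in C against WT (adjusted p = 0.0759). With 6 against 6, Ptpn2 fell (-0.35, adjusted p = 0.0144) and Socs3 rose (0.55, adjusted p = 0.0158), each 5.26% of the list, below the 11.8% and 9.26% of all genes tested. The list's medians were -0.01 in C against WT and 0.03 in CE against E.

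Downstream, 18 genes of the noncanonical inflammasome and pyroptosis were tested. Casp1 was the only one to pass in C against WT (-2.73, SE 0.17, adjusted p = 9.15e-07) and in CE against E (-2.78, SE 0.17, adjusted p = 7.25e-07). Casp4, the sensor that GBPs assist, was at -0.54 in C against WT (SE 0.19, adjusted p = 0.11) and -0.44 in CE against E (SE 0.19, adjusted p = 0.177). In the comparison of 6 with 6, 6 of the 18 fell (33.3%, against 11.8% of all genes tested). Among them were Casp1 itself, Casp4 (-0.49, adjusted p = 0.0189) and Casp12 (-0.47, adjusted p = 0.0219). Casp1 and Casp4 define the caspase label, and Casp12 lies beside them on chromosome 9. The share is therefore not read as a result about the list. Hmgb1, a chromatin protein released by dying cells, also fell (-0.47, adjusted p = 0.00792). Nlrp1b, an inflammasome sensor, rose (0.79, adjusted p = 0.0215). For the transgene the smallest p were those of Casp12 (0.48, adjusted p = 0.705) and Il18 (0.42, adjusted p = 0.755) in E against WT, and of Casp12 (0.44) and Naip5 (0.30) in CE against C. Of 19 genes for recruitment and cofactors, none passed in the comparisons of 3 with 3. These include the ATG8-conjugation genes Atg3 and Atg5, which help to load IRGs and GBPs onto vacuoles, at -0.25 and -0.27 in C against WT (adjusted p = 0.157 and 0.141) and -0.41 and -0.31 in CE against E (adjusted p = 0.0552 and 0.104). Both fell in the comparison of 6 with 6 (-0.33 and -0.29, adjusted p = 0.00839 and 0.0148), as did Lgals3, a lectin that marks broken vacuoles (-0.48, adjusted p = 0.0361), so that 15.8% of the list fell against 11.8% of all genes tested. For the transgene the smallest p in this list were those of Pim1 (0.22) and Atg12 (0.13) in E against WT and of Pim1 (0.21) and Lgals3 (0.29) in CE against C.

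Genes induced by the same cytokines gave few calls. Of 26 other interferon-gamma induced genes, Cd274, the checkpoint ligand PD-L1, was the 1 that passed in a comparison of 3 with 3. It was at 38.7, 40.9 and 31.9 CPM in CE against 20.1, 19.3 and 20.9 CPM in C, and rose by 0.89 on the log2 scale (SE 0.14, adjusted p = 0.0141). In E against WT its estimate was 0.70 (SE 0.14, adjusted p = 0.119), and that of H2-Eb1, a class II chain, was 0.40 (adjusted p = 0.6). Cd274 (29362107 to 29388095) lies near Jak2 (29251803 to 29313095) on chromosome 19. Whether both rises are a local change was not tested. The immunoproteasome genes Psmb9 and Psme2 were at -0.45 each in C against WT (adjusted p = 0.0617 and 0.0665), and in CE against E the class I chain B2m was at -0.44 (adjusted p = 0.0587) and H2-Eb1 at 0.44 (adjusted p = 0.0911). In the comparison of 6 with 6, 4 of the 26 rose and 4 fell, 15.4% each, against 9.26% and 11.8% of all genes tested. Those with the smallest p were B2m (-0.38), Psme2 (-0.38), Psmb9 (-0.35) and Ifi47, an IRG-like GTPase (-0.28), which fell, and H2-Eb1 (0.46), which rose. Of 36 type I interferon-stimulated genes, none passed in the comparisons of 3 with 3, with medians of -0.20 in C against WT and 0.01 in CE against E. Isg15, a ubiquitin-like modifier, was at -0.89 in C against WT (SE 0.22, adjusted p = 0.0567), and Ifitm3, which blocks viral entry, was at -0.44 (adjusted p = 0.0665). In CE against E, Lgals3bp, a secreted glycoprotein, was at 0.53 (adjusted p = 0.0761) and Slfn5 at 0.59 (adjusted p = 0.114). For the transgene, Isg15 was at -0.67 in E against WT (adjusted p = 0.583), and Slfn5 (0.61) and Oas2, an antiviral sensor of RNA (0.29), had the smallest p in CE against C. The list's medians were -0.12 in E against WT and 0.09 in CE against C. In the interaction 31 of the 36 estimates were above 0, with a median of 0.24 against 0.005 over all genes tested. None passed there, and 6 of the 36 had an unadjusted p under 0.05, as 2.11% of all genes tested did. With 6 against 6, 4 of the 36 fell, namely Ifi27l2a (-0.61), Bst2 (-0.44), Isg15 (-0.51) and Ifitm3 (-0.29), and Lgals3bp rose (0.41). These shares, 11.1% and 2.78%, are no higher than the 11.8% and 9.26% of all genes tested.

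**Figure D5:**
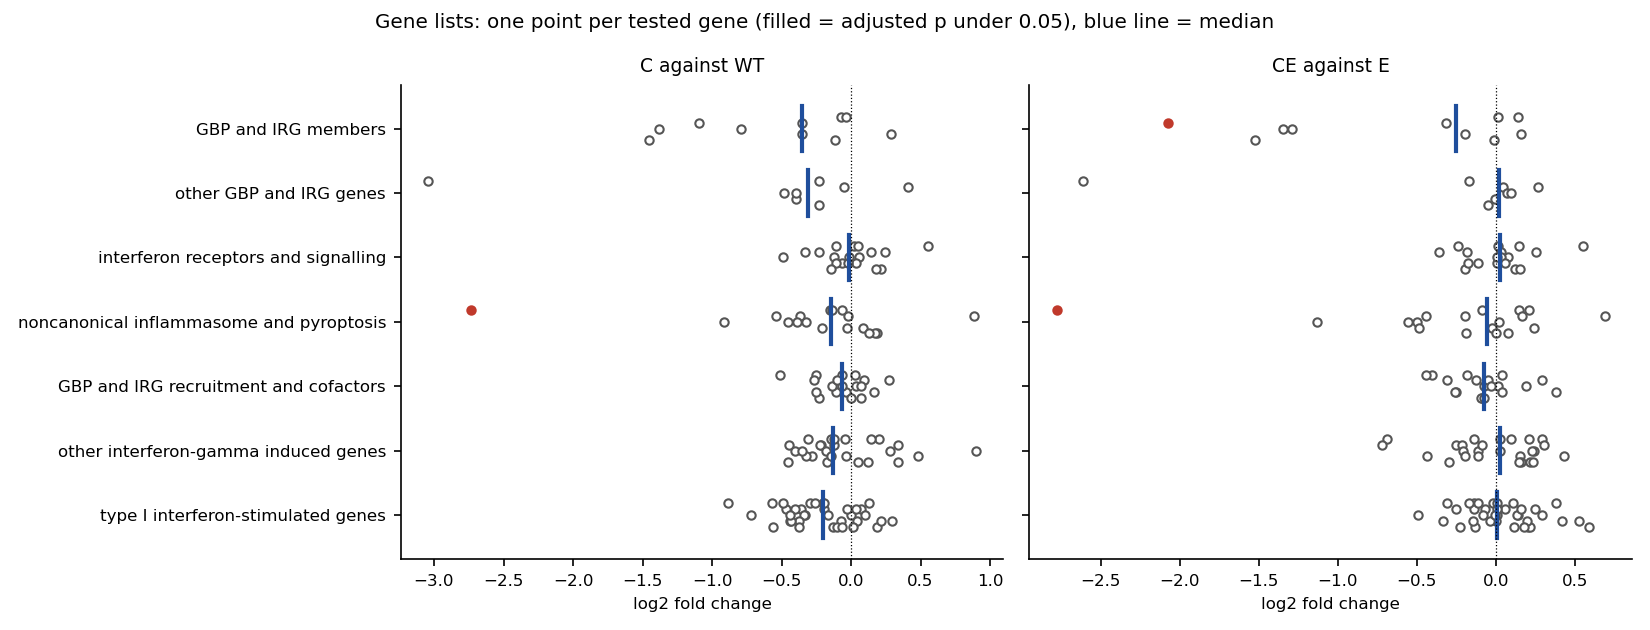
Log2 fold change (x axis) of every tested gene of the members and of 6 related lists (y axis), in C against WT (left) and CE against E (right). Filled points passed at an adjusted p under 0.05 (Casp1 in both panels and Gbp8 in the right), and blue lines are list medians, which are -0.35 and -0.25 for the members and between -0.31 and 0.03 for the other lists.

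Genes most alike to the members were ranked by Pearson r of the deviations from the group means with the members' mean standardised deviation, over the 12 libraries. The first 8 were Nt5e (0.938), Vldlr (0.936), Spaca6 (0.933), Gm12185 (0.930), Tceanc (0.929), Gm16386 (0.927), Sema3g (0.926) and Slc4a7 (0.924). With the group means kept, r was 0.427 for Nt5e, 0.915 for Tceanc and -0.198 for Sema3g, and between 0.23 and 0.575 for the other 5. These genes were picked as the highest of all tested, and no test was made.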

How the data were processed

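RNA-seq of sorted HSCs from 12 mice was used as deposited by the authors: raw counts per gene, listed by NCBI Gene number, with STAR 2.5.3 and mm10 named in the submitters' processing notes. The sources used here do not give the counter, annotation or strandedness. Symbols came from RefSeq and matched 25275 of 27179 genes; the other 1904 stayed in the tests by number. The members and lists were chosen with earlier results of these data known.

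Groups follow the genotype labels. edgeR 4.0.16 (R 4.3.3) fitted group means over all 12 libraries with TMM factors and the filterByExpr filter. Quasi-likelihood F tests were two-sided, with Benjamini-Hochberg adjustment over 14473 genes and a threshold of 0.05. The biological coefficient of variation was 0.139. CPM use effective library sizes, and log2 CPM use a prior count of 2. The pipeline was tested on simulated data.

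Named genes are all members, Casp1, Casp4 and Myc, tested genes of the other GBP and IRG list, up to 5 members of each of 6 lists that passed (otherwise the 2 with the smallest p, left out for the interaction), and the 8 genes most alike. Irf1, flanking genes and transcripts of other cells were named after their values were seen. Alternatives were RLE factors, other filters, DESeq2 1.42.0, limma 3.58.1 voom, fewer libraries, a replicate block and a Y-linked covariate. The comparison of C and CE with WT and E, with its alternatives, was added after the data were seen.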

Additional observations from a re-analysis of the deposited data

How the results depend on the processing

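Over the 10 members, the 6 comparisons and the alternatives other than leaving out a single library, 447 of 520 member values kept their sign and their side of the threshold, 20 lost a call, 20 gained one and 33 changed sign. With single libraries left out, 398 of 480 kept both, 33 lost a call, 3 gained one and 46 changed sign. Counts of calls were the least stable. Without a low-count filter the genes passing in all were 217 in E against WT, 203 in CE against C, 1554 in C against WT (4 members), 1172 in CE against E (4 members) and 39 in the interaction. DESeq2 gave 48, 66, 1195 and 1182 (3 members) in the first 4, and the filter of 1 CPM in 6 libraries gave 219 in C against WT, and RLE factors 160. With limma voom, 109 passed in CE against C, 1773 in C against WT (4 members) and 1392 in CE against E (3 members), the members' median in E against WT was -0.087, and sign changes were those of Gbp4 (-0.67), Gbp6 (-0.086), Gbp7 (-0.088) and Gbp8 (-0.11) in E against WT, Gbp6 in CE against C (-0.055), Igtp in CE against E (0.0045), Gbp5 (0.071) and Gbp6 (0.031) in the interaction and Gbp7 in the comparison of 6 with 6 (-0.026). Fits of only the groups compared gave 1, 110, 19 (1 member) and 843 (2 members).

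Same-numbered libraries had r from -0.244 to 0.166 in their deviations, and libraries with different numbers from -0.259 to 0.282. This gave no sign that the numbers pair the mice, but with few mice a group it cannot exclude pairing. With a replicate block 28 genes passed in E against WT, 47 in CE against C, 2045 in C against WT (2 members) and 1475 in CE against E (2 members), and sign changes were those of Gbp3 (-0.0998) and Gbp7 (-0.13) in E against WT, Gbp5 (0.016) and Gbp6 (0.032) in the interaction and Gbp7 in the comparison of 6 with 6 (-0.012).

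With the Y-linked covariate 9 genes passed in CE against C, 1 in C against WT, 2 in CE against E and 2 in the comparison of 6 with 6, with 0 members in the last 2. Estimates that changed sign were Gbp4 (-0.13) and Gbp6 (-0.26) in CE against C, Gbp4 (0.047) and Gbp5 (-0.24) in C against WT, Gbp2 (-0.22), Gbp5 (-0.21), Gbp7 (-0.13) and Igtp (0.0029) in CE against E, Gbp4 (-0.61) and Gbp5 (0.028) in the interaction, and Gbp5 (-0.22) and Gbp7 (-0.28) in the comparison of 6 with 6. Without CE1 and CE2 together 2 genes passed in CE against E and 771 in the comparison of 6 with 6, with 0 members in each, and Gbp2 (-0.23), Gbp5 (-0.22) and Gbp7 (-0.14) changed sign in CE against E and Gbp7 (-0.10) in the comparison of 6 with 6. Without C1 and C3 together 0 genes passed in CE against C, 4 in C against WT and 20 in the comparison of 6 with 6, with 0 members there, and Gbp9 (0.068) and Irgm1 (-0.0033) changed sign in CE against C and Gbp5 (0.13) in the interaction. These fits have fewer libraries or 1 more term.

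Leaving out single libraries gave 5 to 21 genes in E against WT, 2 to 13 in CE against C, 7 to 2258 in C against WT (0 to 3 members, 3 without WT4), 2 to 32 in CE against E (0 to 1 members) and 1594 to 4667 in the comparison of 6 with 6 (3 to 6 members). Ranges crossed 0 in every comparison. In E against WT they were those of Gbp3 (-0.097 to 0.24), Gbp4 (-0.18 to 0.97), Gbp6 (-0.11 to 0.79), Gbp7 (-0.18 to 0.24), Gbp9 (-0.040 to 0.62) and Irgm1 (-0.20 to 0.042). In CE against C they were those of Gbp4 (-0.13 to 0.80), Gbp5 (-0.0049 to 0.27), Gbp6 (-0.26 to 0.68) and Gbp9 (-0.36 to 0.023), and in C against WT that of Gbp7 (-0.25 to 0.13). In CE against E they were those of Gbp2 (-0.12 to 0.14), Gbp7 (-0.054 to 0.27) and Igtp (-0.046 to 0.020). In the interaction they were those of Gbp2 (-0.039 to 0.23), Gbp3 (-0.14 to 0.20), Gbp4 (-0.62 to 0.70), Gbp5 (-0.31 to 0.014), Gbp6 (-0.71 to 0.48) and Gbp7 (-0.031 to 0.39), and in the comparison of 6 with 6 those of Gbp2 (-0.10 to 0.033) and Gbp7 (-0.054 to 0.13). The cause of these moves was not tested. Low counts limit the chromosome 5 members, with 15 to 189 counts of Gbp4 in a library.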

Other observations

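Among the 4 chromosome 5 members alone, the genes most alike within groups were Gm7694 (r = 0.927 over 12 libraries), Parvb (0.913), Chadl (0.897) and Stac2 (0.894). Arntl, a core transcription factor of the circadian clock, came next, with r = 0.894 within groups and 0.887 with the group means kept. These values describe 12 libraries and were not tested.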
